A study of Homo sapiens with 8 samples.

Results

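The proteasome subunits were the 41 genes whose symbols begin with PSMA, PSMB, PSMC, PSMD or PSME and end in a number, and that reached 1 TPM (transcript abundance scaled to one total per library) in at least 2 of 8 RNA-seq libraries of MV4-11 cells. They were 41 of the 42 such symbols considered here, which are not the whole family, and of the 14151 genes that passed the same limit. The symbol among the 42 that did not pass, PSMB11, the beta subunit of the thymus, was listed at 0 TPM in all libraries, while the lowest member, PSMA8, lay between 5.95 and 20.6 TPM.

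MV4-11 is an established human acute myeloid leukemia (AML) line that carries FLT3-ITD, an activating duplication in a receptor kinase, together with the fusion MLL-AF4, and so did the cells of every group. They received vehicle (DMSO), TCP (tranylcypromine, an inhibitor of the histone demethylase LSD1) at 5 µM, palbociclib (Palbo, an inhibitor of the kinases CDK4 and CDK6) at 0.5 µM, or both molecules at these doses (PTCP, the combination), with 2 libraries in each of the 4 groups. The labels give 4 days of treatment, whereas the study's methods describe palbociclib first and TCP added later, so the length of exposure to TCP is uncertain. The methods also describe culture of the line on HS-5 human stromal cells, and all libraries come from 1 cell line, so differences between replicates measure only the spread between these samples.

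The proteasome is the protease that degrades ubiquitin-tagged proteins. Its barrel, the core particle, stacks outer rings of alpha subunits, which gate the entrance, on inner rings of beta subunits, of which PSMB5, PSMB6 and PSMB7 carry the constitutive active sites. In hematopoietic cells and after interferon, PSMB8 and PSMB10 take the places of PSMB5 and PSMB7 in the immunoproteasome, which is known for making peptides for antigen presentation. The regulatory particle, made of the PSMC ATPases and the PSMD non-ATPase subunits, caps the barrel, recognizes and unfolds the substrate and removes its ubiquitin, and the PSME activators are alternative caps.

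Before the results, 1 library stood apart. The summed level of 12 stromal markers was 12.9 to 37.5 TPM in 7 libraries and 111.9 TPM in Palbo replicate 2. There COL1A1, a fibrillar collagen of fibroblasts, stood at 22.2 TPM against at most 3.78 TPM elsewhere. The sum was 12.9 and 16.5 TPM in DMSO, 17.3 and 22.3 TPM in TCP and 20.2 TPM in Palbo replicate 1. In PTCP it was 28.8 and 37.5 TPM, above all DMSO and TCP libraries. All 7 stromal markers tested lay above 0 in PTCP against DMSO (median 0.84), and 1 was higher in limma (background 15.9%). Counts or fold changes in Palbo are therefore given with and without Palbo replicate 2, for all subunits and for each class. The part of the stromal RNA in the other Palbo values and in the PTCP values was not tested. Of 9 AML markers, 8 reached 1 TPM in 2 libraries (CD34 did not), and their sum was 786.8 to 911.2 TPM. Their members went opposite ways with palbociclib: in PTCP against DMSO FLT3 (−1.71), HOXA9 (−0.74) and MEIS1 (−0.44) were lower, and SPI1 (1.01), PTPRC (0.69), MPO (0.65) and CD33 (0.33) were higher in limma. Of 5 lymphoid markers 2 reached it, among them NKG7, at 168 to 207 TPM in DMSO and TCP and at 277 to 310.8 TPM in Palbo and PTCP (0.80 and 0.73 against DMSO, limma adjusted p = 0.00114 and 0.00115), with both T cell receptor markers, CD3E and CD3D, at or near 0, and none of 4 erythroid markers did. The sum of 10 proliferation genes was 2198 to 2775 TPM in the DMSO and TCP libraries, 1214 to 1250 TPM in Palbo and 896.5 to 966.2 TPM in PTCP. Proliferation genes thus fell in the same groups as the subunits described next. In these groups NKG7 and the summed stromal markers were higher than in DMSO, and AML markers went both ways. The part of these changes in the results was not tested. In bulk RNA, fewer cells of a type and less RNA per cell cannot be told apart.

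To show what lies upstream of the genes with the largest and smallest changes, promoter sequences are printed for PSMA4 and PSMA2, which fell furthest in the rings, for the immunoproteasome gene PSMB10, and for PSMB4 and PSMD5, which did not fall. Each is 300 bases long, from 250 before to 50 after the annotated start, 5′ to 3′ on the gene's strand, from RefSeq on GRCh38.p14. Capitals mark matches, on either strand, to motifs searched by their letters. For PSMA4 the first of 3 entries is printed. Its matches to TGACNNNGC and CCAAT, motifs named below, stood only in its other entries.
PSMA4, chr15:78540155-78540454, + strand: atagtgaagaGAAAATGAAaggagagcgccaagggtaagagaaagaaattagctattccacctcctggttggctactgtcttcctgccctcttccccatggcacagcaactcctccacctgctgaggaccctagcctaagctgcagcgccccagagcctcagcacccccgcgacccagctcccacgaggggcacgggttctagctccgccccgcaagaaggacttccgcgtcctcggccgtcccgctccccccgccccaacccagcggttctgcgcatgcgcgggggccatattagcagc
PSMA2, chr7:42932125-42932424, - strand: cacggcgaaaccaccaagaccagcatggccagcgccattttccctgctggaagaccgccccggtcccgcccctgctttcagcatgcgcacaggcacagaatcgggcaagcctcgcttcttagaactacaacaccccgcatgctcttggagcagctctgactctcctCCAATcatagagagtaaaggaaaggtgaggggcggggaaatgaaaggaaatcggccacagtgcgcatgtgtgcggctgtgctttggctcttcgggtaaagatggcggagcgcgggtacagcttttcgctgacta
PSMB10, chr16:67936801-67937100, - strand: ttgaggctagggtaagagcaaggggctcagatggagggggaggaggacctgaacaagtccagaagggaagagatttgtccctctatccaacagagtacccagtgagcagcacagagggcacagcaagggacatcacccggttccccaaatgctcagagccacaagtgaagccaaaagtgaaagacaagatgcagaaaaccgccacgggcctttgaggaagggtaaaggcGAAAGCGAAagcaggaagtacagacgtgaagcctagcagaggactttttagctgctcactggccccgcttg
PSMB4, chr1:151399323-151399622, + strand: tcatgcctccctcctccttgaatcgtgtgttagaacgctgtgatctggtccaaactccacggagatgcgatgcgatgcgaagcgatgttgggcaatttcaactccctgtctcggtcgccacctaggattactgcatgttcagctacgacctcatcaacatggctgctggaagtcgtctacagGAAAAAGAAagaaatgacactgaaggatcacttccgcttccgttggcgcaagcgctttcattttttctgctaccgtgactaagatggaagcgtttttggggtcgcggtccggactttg
PSMD5, chr9:120842873-120843172, - strand: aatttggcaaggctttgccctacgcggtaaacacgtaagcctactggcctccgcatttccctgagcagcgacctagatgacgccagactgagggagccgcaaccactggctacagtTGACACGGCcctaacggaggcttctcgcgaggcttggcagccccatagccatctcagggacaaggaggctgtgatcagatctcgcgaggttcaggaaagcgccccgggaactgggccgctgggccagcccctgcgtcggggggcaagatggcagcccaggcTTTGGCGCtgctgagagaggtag

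The motifs were TGACNNNGC (the core of the antioxidant response element, to which NFE2L1, the activator of proteasome genes, can bind), GAAANNGAA (a short form of the interferon response element), CCAAT (the CCAAT box) and TTTCCCGC and TTTGGCGC (E2F sites of the cell cycle). A promoter entry matched 36 of the 41 symbols, and PSMA7, PSMB1, PSMB6, PSMB7 and PSMD4 had none. TGACNNNGC stood in the promoters of 12 of the 36 genes (33.3%) and in 16.1% of all genes in the table, counting all entries of a gene. GAAANNGAA stood in 7 (19.4%, against 9.86% of all genes), namely PSMA4, PSMB4, PSMB8, PSMB10, PSMC2, PSME1 and PSME2. CCAAT stood in 17 (47.2%, against 39.7%). The E2F letters stood in 2 genes each, TTTCCCGC in PSMA1 and PSMB3 (5.56%, against 1.98%) and TTTGGCGC in PSMD5 and PSMD9 (5.56%, against 0.795%). Of the 27 searched genes that fell in PTCP against DMSO, 15 held CCAAT, 8 TGACNNNGC, 6 GAAANNGAA, 2 TTTCCCGC and 0 TTTGGCGC. Of the other 9 searched genes, 2, 4, 1, 0 and 2 did, in the same order. The difference between these groups was not tested. These matches describe letters in a window and are not binding sites.

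The comparison of PTCP with DMSO asked what the combination did to these genes. Transcripts of the proteasome fell: 31 of 41 subunits were lower and 0 were higher at an adjusted p below 0.05 (limma on log2(TPM + 1), Benjamini-Hochberg over 14151 genes). Over all genes tested, 37.6% were lower and 15.9% higher by the same rule. The median log2 fold change was −0.47 for the subunits and −0.22 for all genes, and the summed level of the subunits went from 6065 and 6393 TPM in the DMSO libraries to 4548 and 4549 TPM in PTCP. This sum was 0.623% of the library in DMSO and 0.455% in PTCP, or 73.0% of the control level. Both PTCP libraries lay below both DMSO libraries for 34 subunits (82.9%), as for 54.2% of all genes. Changes were mostly under 2-fold: by the study's thresholds for a differentially expressed gene (DEG, log2 fold change of at least 1 in either direction and adjusted p below 0.01), only PSMA8 was a lower DEG, against 7.82% of all genes.

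Because the median of all genes lay below 0 on the TPM scale, the same counts were made with libraries scaled by their median ratio. The median of all genes was then −0.01 and that of the subunits −0.24, so the distance of the subunits from the median gene was −0.23, against −0.25 on the TPM scale. The number of lower subunits dropped to 18, PSMD5 became higher, and the background became 23.4% lower and 23.5% higher. On this scale 32 of 41 subunits lay below 0, against 39 on the TPM scale.

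Palbociclib alone also lowered these transcripts. Against DMSO, 30 of 41 subunits were lower and 0 were higher (background 30.2% lower and 14.8% higher). Their log2 fold changes had a median of −0.39, that of all genes being −0.16, and both Palbo libraries lay below both DMSO libraries for 38 subunits (92.7%, against 49.7% of all genes). PSMA8 was again the lower DEG, against 4.56% of all genes. The summed level was 4705 and 4507 TPM. Without Palbo replicate 2, the library with stromal RNA, 17 subunits were lower (background 18.1%), among them PSMA2, PSMA4, PSMB8, PSMC3, PSMD14 and PSME1, and the median was −0.37. Without DMSO replicate 2, 18 were lower (background 20.1%). With median-ratio scaling 16 were lower and 1, PSMD5, was higher (background 20% and 20.2%). In PTCP against DMSO, 27 subunits were lower (background 35.6%) without Palbo replicate 2, which enters that comparison only through the shared estimate of the spread.

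No change with TCP alone was detectable at this number of libraries. Against DMSO, 0 of 41 subunits passed the limma test in either direction and 0 had an unadjusted p below 0.05, where 0.431% of all genes passed. The median log2 fold change was 0.05, and 30 subunits lay above 0, within a range from −0.21 for PSMD10 to 0.20 for PSMC1. Both TCP libraries lay above both DMSO libraries for 9 subunits (22%, against 12.4% of all genes). The summed level was 6236 TPM in TCP replicate 1, between those of the DMSO libraries, and 6846 TPM in replicate 2, and without replicate 2 the median turned to −0.02.

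The combination was then set against each single molecule. Against TCP, 31 subunits were lower and 0 higher (background 33.8% and 16.5%), and 3, PSMA2, PSMA4 and PSMA8, were lower DEG (background 6.7%). With the replicate numbers as a block, 34 were lower, PSMD1, PSMD4 and PSMD10 in addition, and the background was 40% lower. Against Palbo, 0 of 41 passed the limma test (background 3.49%), and 2 had an unadjusted p below 0.05, PSMA2 (−0.23, 95% interval −0.39 to −0.07) and PSMD12 (−0.25, −0.43 to −0.07). The 95% interval of this difference was −0.26 to 0.18 for PSMB8 and −0.23 to 0.34 for PSMB5, which leaves room for small shifts either way. Both PTCP libraries lay below both Palbo libraries for 11 subunits (26.8%), against 37.2% of all genes. In the test of the interaction, which asks whether the effect of both molecules differed from the sum of the single effects, 0 subunits and 0% of all genes passed in limma. PSMA2 (−0.29 ± 0.09, SE) and PSMD12 (−0.27 ± 0.11) had an unadjusted p below 0.05 (adjusted p = 0.618 and 0.765).

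**Figure D1:**
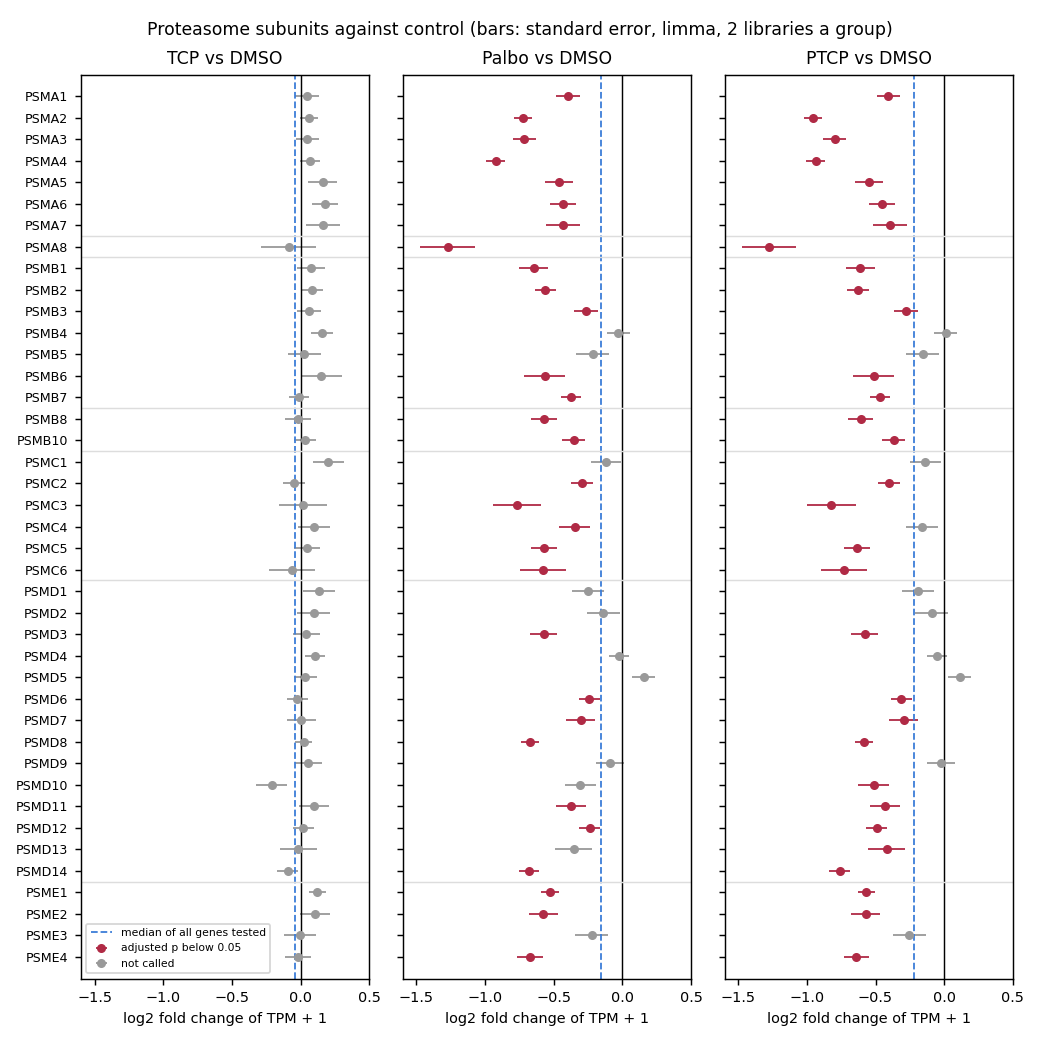
Log2 fold change of TPM + 1 (x axis) of the 41 proteasome subunits (y axis, ordered by class) in TCP, Palbo and PTCP against DMSO; points are limma estimates from 2 libraries a group, bars are standard errors, red marks an adjusted p below 0.05 and the dashed line is the median of all 14151 genes. No subunit is red in TCP, 30 are in Palbo and 31 in PTCP, all to the left of 0; with median-ratio scaling 16 and 18 are lower and PSMD5 is higher in both.

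**Figure D2:**
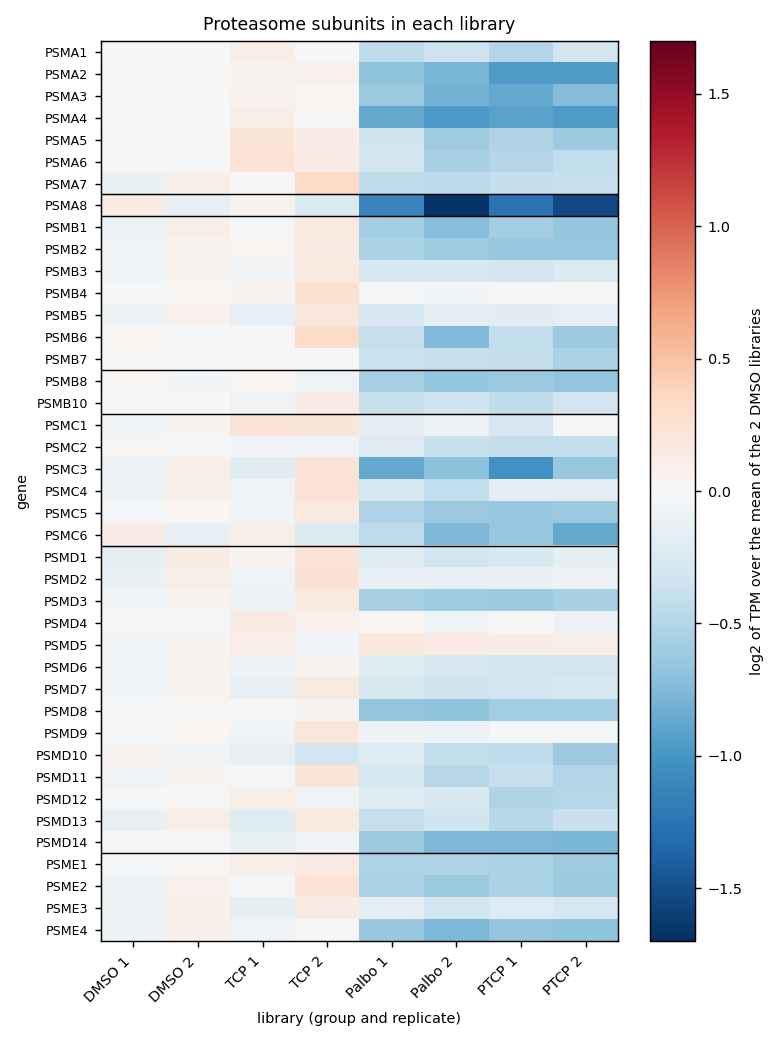
Log2 of the TPM of each subunit (rows) over the mean of the 2 DMSO libraries, in each of the 8 libraries (columns); blue is lower and red higher, and black lines part the alpha ring, PSMA8, the beta ring, the immunoproteasome, the ATPases, the non-ATPases and the activators. The Palbo and PTCP libraries are blue for most rows, PSMB4 and PSMD4 stay near white and PSMD5 is faintly red, while TCP replicate 2 is redder than replicate 1 in many rows.

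The alpha ring, which forms the gate of the barrel, fell as a whole. In PTCP all 7 alpha subunits were lower than in DMSO (median −0.55 on the log2 scale), and in Palbo all 7 were lower (median −0.46). Counts of this and the other classes stand beside the share of all genes that were lower, 37.6% in PTCP and 30.2% in Palbo. For median-ratio scaling, and for Palbo without 1 library, that share is given above. The ring's summed level was 1290 and 1324 TPM in DMSO, 1395 and 1400 TPM in TCP, 865.3 and 812.6 TPM in Palbo and 803.8 and 826.7 TPM in PTCP. The PTCP level was thus 62.4% of control. With median-ratio scaling 4 of the 7 were lower in PTCP and in Palbo, and without Palbo replicate 2 there were 4 in Palbo.

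PSMA2, a structural subunit of this ring (chr7:42956427-42971784, minus strand, on GRCh37), had the largest decrease of the ring in PTCP. Its level was 167 and 173 TPM in DMSO, 177 and 179 TPM in TCP, 106 and 99.1 TPM in Palbo and 87.0 and 87.4 TPM in PTCP. All 4 libraries with palbociclib lay below all 4 without it, and both PTCP libraries lay below both Palbo libraries. The log2 fold change was −0.96 ± 0.07 (SE, limma adjusted p = 7.31e-05) in PTCP and −0.73 ± 0.07 (adjusted p = 0.000343) in Palbo.

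PSMA4 (chr15:78832747-78844759, plus strand), the most abundant alpha subunit, was at 401.5 and 394.8 TPM in DMSO and at 430.4 and 404.8 TPM in TCP. It was at 217 and 202 TPM in Palbo and at 211 and 204 TPM in PTCP. The Palbo and PTCP libraries overlapped each other and lay below all libraries without palbociclib. Its log2 fold changes were −0.94 ± 0.07 in PTCP (limma adjusted p = 9.69e-05) and −0.92 ± 0.07 in Palbo (adjusted p = 0.000186). PSMA7 (chr20:60711789-60718496, minus strand) had the smallest change of the ring. It stood at 203 and 236 TPM in DMSO, 218 and 277 TPM in TCP, 163 and 161 TPM in Palbo, and 166 and 168 TPM in PTCP, a log2 fold change of −0.39 ± 0.12 (adjusted p = 0.0321). The libraries with palbociclib lay below the others, but the call in PTCP was lost with median-ratio scaling (limma adjusted p = 0.389) and without DMSO replicate 2 or any 1 of the Palbo and PTCP libraries (adjusted p from 0.0526 to 0.166). Between these genes lay PSMA3 (−0.80), PSMA5 (−0.55), PSMA6 (−0.45) and PSMA1 (−0.41).

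PSMA8, on chromosome 18, is the alternative alpha subunit known from germ cells, where it takes the place of PSMA7. In these cells it was a minor transcript, at 20.6 and 17.2 TPM in DMSO and 19.7 and 15.9 TPM in TCP. With palbociclib it was at 8.72 and 5.95 TPM, and in PTCP at 7.96 and 6.51 TPM. The libraries with palbociclib lay below all others, and the log2 fold change in PTCP was −1.28 ± 0.20 (limma adjusted p = 0.00179), the largest decrease of the 41 genes. Its adjusted p passed the DEG threshold of 0.01 in the full set of libraries, but PSMA8 was no DEG in PTCP without DMSO replicate 1 or PTCP replicate 2, nor in Palbo without DMSO replicate 1, DMSO replicate 2 or Palbo replicate 2.

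The constitutive beta ring fell less evenly. In PTCP 5 of 7 beta subunits were lower, with a median of −0.47, and the summed level was 1546 and 1655 TPM in DMSO, 1590 and 1824 TPM in TCP, 1293 and 1241 TPM in Palbo and 1293 and 1268 TPM in PTCP, or 80.0% of control in PTCP. In Palbo 5 of 7 were lower, and 3 without Palbo replicate 2. With median-ratio scaling 3 of 7 were lower in PTCP and 2 in Palbo. The log2 ratio of the summed alpha ring to the summed beta ring, taken inside each library so that scaling cancels, was −0.26 and −0.32 in DMSO and −0.69 and −0.62 in PTCP. In Palbo it was −0.58 and −0.61, and in TCP −0.19 and −0.38. The Palbo and PTCP libraries lay below all others, with a difference of −0.36 between PTCP and DMSO (exact permutation test, two-sided, p = 0.333, the smallest that 2 libraries against 2 allow). Abundant genes weigh most in such sums. From DMSO to PTCP the mean of PSMA4 went from 398 to 207 TPM and that of PSMB4 from 441 to 444 TPM. The ratio without these genes was not tested, and the medians of the rings in PTCP were −0.55 and −0.47.

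Among the beta subunits, PSMB1 and PSMB2, structural subunits of the ring, fell most in PTCP. PSMB2 (chr1:36065142-36107127, minus strand) was at 74.0 and 80.6 TPM in DMSO, 78.8 and 85.0 TPM in TCP, 53.1 and 51.1 TPM in Palbo and 49.6 and 49.6 TPM in PTCP. PSMB1 (chr6:170844208-170862395, minus strand) was at 439.7 and 503.6 TPM in DMSO, 464.5 and 530.3 TPM in TCP, 315 and 286 TPM in Palbo and 317 and 299.6 TPM in PTCP. For both genes the libraries with palbociclib lay below the others without overlap, with log2 fold changes in PTCP of −0.63 ± 0.08 for PSMB2 (limma adjusted p = 0.000718) and −0.61 ± 0.10 for PSMB1 (adjusted p = 0.0025).

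PSMB4 (chr1:151372036-151374413, plus strand), also a structural beta subunit, gave the opposite picture. It stood at 431.7 and 450.2 TPM in DMSO, 456.7 and 528.9 TPM in TCP, 434.9 and 428.5 TPM in Palbo, and 442.4 and 445.7 TPM in PTCP. The PTCP libraries lay between the DMSO libraries, with a log2 fold change of 0.01 ± 0.08 (95% interval −0.19 to 0.21). PSMA4 and PSMB4, equally needed for a barrel, had a log2 ratio of −0.10 and −0.19 in DMSO, −0.09 and −0.39 in TCP, −1.001 and −1.08 in Palbo and −1.07 and −1.13 in PTCP. Both genes were named for the size of their changes in PTCP, so this ratio is a description of them and was not tested.

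The 3 constitutive active sites did not move alike. PSMB5 (chr14:23485752-23504439, minus strand), which carries the chymotrypsin-like site and is the target of bortezomib, was at 101 and 112 TPM in DMSO, 96.7 and 122 TPM in TCP, 87.9 and 95.6 TPM in Palbo and 94.3 and 96.5 TPM in PTCP. All libraries with palbociclib lay below all without it, PTCP replicate 2 by less than 1 TPM, and the log2 fold change of −0.16 ± 0.12 in PTCP did not pass the test (limma adjusted p = 0.305). PSMB6 (chr17:4699439-4701797, plus strand), the caspase-like site, was at 112 and 108 TPM in DMSO, 109 and 136 TPM in TCP, 83.3 and 65.4 TPM in Palbo, and 82.2 and 71.3 TPM in PTCP. Its decrease in PTCP, −0.51 ± 0.15 (adjusted p = 0.0242), was not called with median-ratio scaling (adjusted p = 0.187) or without DMSO replicate 1, DMSO replicate 2 or PTCP replicate 2 (adjusted p = 0.101, 0.0733 and 0.136). PSMB7 (chr9:127115744-127177723, minus strand), the trypsin-like site, was at 177 and 173 TPM in DMSO, 171 and 176 TPM in TCP, 136 and 133 TPM in Palbo and 132 and 121 TPM in PTCP. It fell in PTCP by 0.47 ± 0.07 on the log2 scale (adjusted p = 0.00159), with no overlap between libraries with and without palbociclib. PSMB3 (−0.28, adjusted p = 0.0326) completes the ring, and its value was −0.049 (adjusted p = 0.736) with median-ratio scaling.

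PSMB8 and PSMB10, the immunoproteasome subunits considered here, both fell with palbociclib, and PSMB8 alone of them was called in Palbo without Palbo replicate 2. PSMB8 (chr6:32808494-32812456, minus strand) was low in this line, at 19.8 and 18.7 TPM in DMSO and 19.7 and 18.3 TPM in TCP, and it was at 13.1 and 12.2 TPM in Palbo and 12.5 and 12.1 TPM in PTCP. Its log2 fold change was −0.57 ± 0.09 in Palbo (limma adjusted p = 0.00298) and −0.61 ± 0.09 in PTCP (adjusted p = 0.00164). PSMB10 (chr16:67968409-67970767, minus strand) was abundant, at 261 and 266 TPM in DMSO and 253 and 286 TPM in TCP, against 203 and 209 TPM in Palbo and 195 and 213 TPM in PTCP. It fell in PTCP by 0.37 ± 0.08 on the log2 scale (adjusted p = 0.00872). This call was lost with median-ratio scaling (adjusted p = 0.31) and without PTCP replicate 1 (adjusted p = 0.0625). The decrease in Palbo, −0.35 (adjusted p = 0.0126), was not called with median-ratio scaling (−0.189, adjusted p = 0.187) or without any 1 of the DMSO or Palbo libraries (adjusted p from 0.0529 to 0.0649). For both genes no library with palbociclib reached the level of any library without it.

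Within each library, each immunoproteasome subunit was set against the constitutive subunit whose place it takes. The log2 ratio of PSMB8 to PSMB5 was −2.35 and −2.59 in DMSO, −2.29 and −2.73 in TCP, −2.75 and −2.97 in Palbo and −2.92 and −3.00 in PTCP. All libraries with palbociclib lay below all without it, the higher Palbo library only just below the lower TCP library, and the difference between PTCP and DMSO was −0.49 (exact permutation p = 0.333, two-sided). PSMB10 to PSMB7 gave log2 ratios of 0.56 and 0.62 in DMSO, 0.57 and 0.70 in TCP, 0.57 and 0.65 in Palbo and 0.57 and 0.81 in PTCP. All 4 groups overlapped, and the difference of 0.10 between PTCP and DMSO had an exact permutation p of 0.667. The sum of PSMB8 and PSMB10 was 281 and 284 TPM in DMSO and 208 and 225 TPM in PTCP, or 76.5% of control, and its log2 ratio to the constitutive beta ring differed by −0.07 between PTCP and DMSO (exact p = 0.667).

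**Figure D3:**
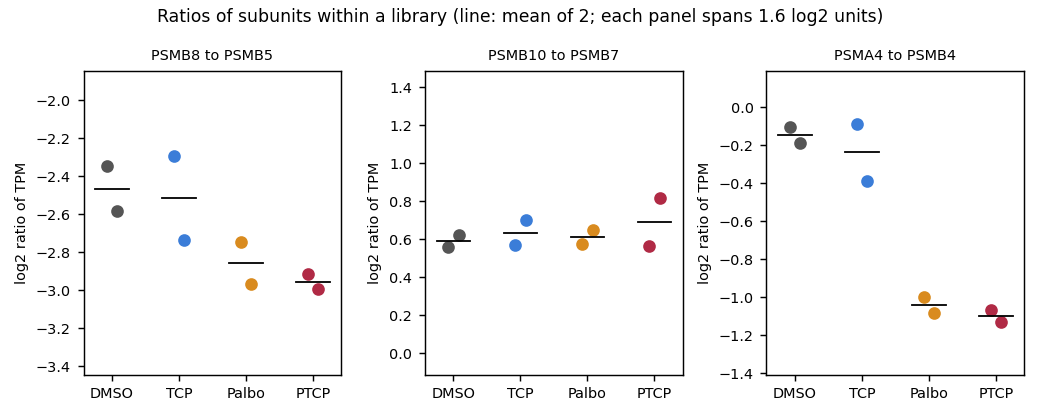
Log2 ratio of TPM inside each library (y axis) of PSMB8 to PSMB5, PSMB10 to PSMB7 and PSMA4 to PSMB4 in the 4 groups (x axis); points are libraries, lines are means of 2 and each panel spans the same range. PSMB8 to PSMB5 is −2.92 and −3.00 in PTCP against −2.35 and −2.59 in DMSO, PSMB10 to PSMB7 overlaps in all groups, and PSMA4 to PSMB4 is near −1 in every library with palbociclib.

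In the regulatory particle, a smaller share of the genes passed the test than in the core. The 20 genes counted here include PSMD5, PSMD9 and PSMD10, assembly chaperones rather than subunits of the mature particle. Of these, PSMD5 and PSMD9 were not called in PTCP. In PTCP 13 of 20 were lower, with a median of −0.41, where 37.6% of all genes were lower. In Palbo 12 of 20 were lower, with a median of −0.31, where 30.2% of all genes were lower. The count in Palbo was 5 without Palbo replicate 2, 5 without DMSO replicate 2, and 5, with PSMD5 higher, under median-ratio scaling. Under these settings the counts lie near the shares of all genes given above. The summed level of the particle was 1979 and 2093 TPM in DMSO and 1966 and 2190 TPM in TCP. It was 1613 and 1542 TPM in Palbo and 1534 and 1555 TPM in PTCP. The PTCP level was 75.8% of control, against 72.1% for the 14 genes of the constitutive core. The log2 ratio of the regulatory particle to the core was −0.52 and −0.51 in DMSO and −0.60 and −0.56 in TCP. In Palbo it was −0.42 and −0.41, and in PTCP −0.45 and −0.43. The shift of PTCP against DMSO was small and without overlap (0.07, exact permutation p = 0.333). That of TCP was of the same size the other way, also without overlap (−0.07, exact permutation p = 0.333). With median-ratio scaling 7 of 20 were lower and PSMD5 higher in PTCP, against 7 of 14 lower in the core.

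The ATPases, which unfold the substrate and open the gate, included 4 of 6 lower genes in PTCP (median −0.52) and 5 of 6 in Palbo (median −0.46). With median-ratio scaling 2 of 6 were lower in Palbo. Without Palbo replicate 2 the log2 fold changes of the 6 in Palbo ran from −0.856 for PSMC3 to −0.148 for PSMC1. PSMC3 (chr11:47440320-47448024, minus strand) was at 123 and 141 TPM in DMSO, 116 and 154 TPM in TCP, 72.3 and 81.7 TPM in Palbo and 64.7 and 84.9 TPM in PTCP. PSMC6 (chr14:53173896-53195308, plus strand) was at 57.4 and 48.1 TPM in DMSO, 56.5 and 44.7 TPM in TCP, 39.0 and 31.2 TPM in Palbo and 33.7 and 29.0 TPM in PTCP. Neither gene overlapped between libraries with and without palbociclib. The log2 fold changes in PTCP were −0.82 ± 0.18 for PSMC3 (limma adjusted p = 0.00707) and −0.73 ± 0.17 for PSMC6 (adjusted p = 0.00892). The call of PSMC6 was lost without DMSO replicate 1 (adjusted p = 0.058) and without PTCP replicate 2 (adjusted p = 0.0622). PSMC1 (chr14:90722871-90741773, plus strand), for which the annotation lists 13 pseudogenes, had the smallest change. It was at 15.6 and 16.7 TPM in DMSO, 18.9 and 18.6 TPM in TCP, 14.5 and 15.1 TPM in Palbo, and 13.2 and 16.1 TPM in PTCP, which overlapped DMSO (−0.14 ± 0.11). Set against the non-ATPases inside each library, the ATPases had a log2 ratio of −1.29 and −1.3 in DMSO, −1.32 and −1.25 in TCP, −1.52 and −1.53 in Palbo and −1.55 and −1.48 in PTCP, which lay below DMSO without overlap (exact permutation p = 0.333). PSMC5 (−0.63) and PSMC2 (−0.40) fell in PTCP, and PSMC4 did not pass the test (−0.16, adjusted p = 0.274), while its call in Palbo (−0.35, adjusted p = 0.0442) was lost without Palbo replicate 2 (0.196), without DMSO replicate 2 (0.202) and with median-ratio scaling (0.305), and PTCP against Palbo gave 0.19 (95% interval −0.09 to 0.46).

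Of the 14 non-ATPase subunits, which hold the ubiquitin receptors, the lid and its deubiquitinase, 9 were lower in PTCP (median −0.37) and 7 in Palbo (median −0.28). With median-ratio scaling 4 were lower and PSMD5 higher in PTCP, and 3 lower and PSMD5 higher in Palbo, where 3 were also lower without Palbo replicate 2. With median-ratio scaling the lower counts of this class lie near the shares of all genes given above. The same holds in Palbo without Palbo replicate 2. With the replicate numbers as a block, PSMD10 and PSMD13 were lower in Palbo as well. PSMD14 (chr2:162164936-162268228, plus strand), the metalloprotease that removes ubiquitin chains from the substrate, was at 96.6 and 95.9 TPM in DMSO, 88.3 and 92.0 TPM in TCP, 62.6 and 56.9 TPM in Palbo and 56.8 and 56.0 TPM in PTCP. PSMD8 (chr19:38865203-38874490, plus strand), a lid subunit, was at 133 and 138 TPM in DMSO, 135 and 141 TPM in TCP, 84.8 and 84.3 TPM in Palbo and 90.0 and 90.2 TPM in PTCP. These had the largest changes of the class, with close replicates and no overlap between libraries with and without palbociclib. The log2 fold changes in PTCP were −0.76 ± 0.07 for PSMD14 (limma adjusted p = 0.000262) and −0.58 ± 0.06 for PSMD8 (adjusted p = 0.000413).

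PSMD9 (chr12:122326638-122356203, plus strand), an assembly chaperone of the ATPase ring rather than a subunit of the mature particle, had the smallest change of the class. It was at 31.1 and 32.6 TPM in DMSO, 30.2 and 36.4 TPM in TCP, 29.9 and 29.8 TPM in Palbo and 31.2 and 31.3 TPM in PTCP, so that PTCP lay between the DMSO libraries (−0.03 ± 0.10). PSMD5 (chr9:123577774-123605229, minus strand), likewise an assembly chaperone, was at 38.7 and 41.2 TPM in DMSO, 43.1 and 38.8 TPM in TCP, 45.2 and 43.97 TPM in Palbo and 43.6 and 42.9 TPM in PTCP. Its log2 fold change of 0.11 ± 0.08 in PTCP did not pass the test on the TPM scale (limma adjusted p = 0.293), and was 0.34 (adjusted p = 0.01) with median-ratio scaling and 0.32 (adjusted p = 0.0125) with quantile normalization. PSMD5 was singled out here after its values were seen. PSMD10, the third chaperone of this kind and also known as gankyrin, went the other way and fell in PTCP (−0.51, adjusted p = 0.00727). Among the remaining genes, the large scaffold subunits PSMD1 (−0.19) and PSMD2 (−0.09) and the ubiquitin receptor PSMD4 (−0.05) did not pass in PTCP, whereas PSMD3 (−0.58), PSMD12 (−0.49), PSMD11 (−0.43), PSMD13 (−0.42), PSMD6 (−0.31) and PSMD7 (−0.29, adjusted p = 0.0482) fell. With median-ratio scaling PSMD11 (−0.205), PSMD13 (−0.19), PSMD6 (−0.084) and PSMD7 (−0.065) were not called, nor was PSMD10 (−0.287, adjusted p = 0.0503).

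The activators, caps that open the barrel without ATP, fell in 3 of 4 cases in PTCP and in Palbo, there also without Palbo replicate 2. PSME1 and PSME2 form the 11S cap that interferon induces together with the immunoproteasome, and their genes lie 4394 bases apart on chromosome 14. PSME1 (chr14:24605372-24608176, plus strand), the most abundant of the 41 genes in DMSO, was at 495.3 and 510.6 TPM in DMSO, 534.3 and 561.4 TPM in TCP, 348.1 and 350.5 TPM in Palbo and 347.9 and 330.9 TPM in PTCP. PSME2 (chr14:24612571-24616779, minus strand) was at 285 and 319 TPM in DMSO, 296 and 356 TPM in TCP, 208 and 196 TPM in Palbo and 208 and 197 TPM in PTCP. Both fell by 0.57 on the log2 scale in PTCP (SE 0.07 and 0.11, limma adjusted p = 0.000483 and 0.00385), without overlap between libraries with and without palbociclib. The call of PSME2 was lost in PTCP with median-ratio scaling (adjusted p = 0.0591).

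PSME4 (chr2:54091206-54198130, minus strand), a single-chain nuclear activator, was at 30.1 and 34.0 TPM in DMSO, 30.9 and 32.3 TPM in TCP, 20.5 and 18.9 TPM in Palbo and 20.3 and 20.0 TPM in PTCP. It fell by 0.64 ± 0.09 on the log2 scale in PTCP (limma adjusted p = 0.00143). PSME3 (chr17:40976402-40995777, plus strand), the nuclear activator that interferon does not induce, was at 138 and 155 TPM in DMSO, 132 and 162 TPM in TCP, 132 and 119 TPM in Palbo and 126 and 119.9 TPM in PTCP. Its PTCP libraries lay below all libraries without palbociclib, but the difference of −0.25 ± 0.12 did not pass the test (adjusted p = 0.112). PSME3 overlaps BECN1 on the opposite strand, which reached 138.0 TPM, and since the strand setting of the counting is not given, reads of the genes cannot be told apart. PSME1, PSME2, PSME4, PSMB8, PSMC1, PSMC5, PSMD1 and PSMD6 also overlap an expressed gene on the opposite strand, and PSMC2 overlaps PMPCB on its own strand.

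**Figure D4:**
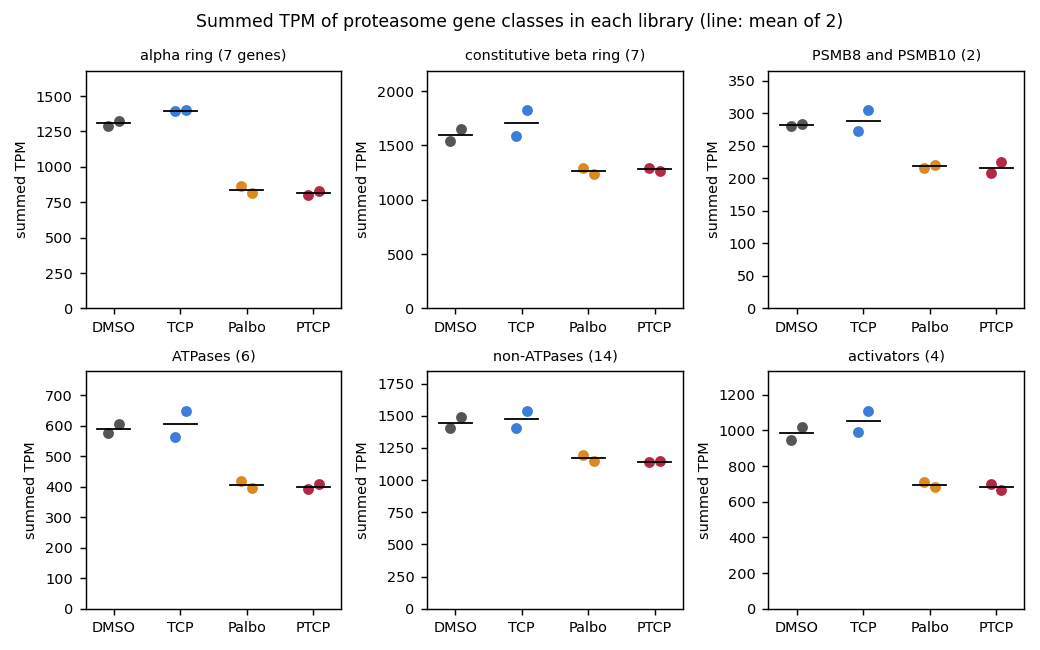
Summed TPM (y axis, from 0) of 6 classes of proteasome genes in each of the 8 libraries, by group (x axis); points are libraries and lines are means of 2. Palbo and PTCP lie below DMSO and TCP in every class on the TPM scale, with PTCP at 62.4% of the DMSO mean for the alpha ring, 80.0% for the beta ring, 76.5% for PSMB8 and PSMB10, 67.8% for the ATPases, 79.1% for the non-ATPases and 69.6% for the activators.

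The genes that assemble, regulate and feed the proteasome were read as lists. Counts of these and the lists that follow are on the TPM scale only. They were not repeated with median-ratio scaling, with which fewer subunits were lower. Of 11 assembly factors and associated proteins, 8 were lower and 0 higher in PTCP, with a median of −0.50 (37.6% of all genes were lower). PSMG1, a chaperone that starts the alpha ring, was at 96.2 and 99.5 TPM in DMSO, 94.1 and 96.8 TPM in TCP, 49.5 and 49.6 TPM in Palbo and 41.8 and 39.5 TPM in PTCP. Its log2 fold change of −1.25 ± 0.07 (limma adjusted p = 3.72e-05) was the only DEG of the list. POMP, the maturation factor of the beta ring, fell from 118 and 97.6 TPM in DMSO to 68.4 and 59.1 TPM in PTCP (−0.75 ± 0.16), and SHFM1, a small lid subunit that the symbol pattern does not cover, fell from 212 and 199 TPM to 126 and 132 TPM (−0.67 ± 0.07). In TCP against DMSO 0 of the 11 passed.

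The bounce-back response, by which cells make more proteasome when it is blocked, was split. In PTCP 3 of its 8 genes were higher and 2 lower, where 15.9% of all genes were higher and 37.6% lower. NFE2L1, the transcription factor that activates proteasome genes, was at 93.4 and 79.7 TPM in DMSO and 122 and 113 TPM in PTCP (0.44 ± 0.12, limma adjusted p = 0.0214). NFE2L3, a related factor, was at 27.5 and 28.7 TPM in DMSO and 42.0 and 50.8 TPM in PTCP (0.70 ± 0.12), while MAFF, a small MAF partner of these factors, fell from 10.0 and 10.4 TPM to 4.13 and 5.18 TPM (−0.998 ± 0.27). NFE2L1 and its relatives were thus higher in the same libraries in which most subunits were lower. In Palbo 2 of the 8 were lower and 0 higher (background 30.2% and 14.8%).

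Of 16 ubiquitin genes, shuttle receptors and deubiquitinases, 7 were lower and 1 higher in PTCP, a share near the 37.6% lower among all genes, and the median of −0.10 lay above that of all genes, −0.22. UCHL5, a deubiquitinase bound to the regulatory particle, fell from 41.0 and 40.8 TPM in DMSO to 22.3 and 22.2 TPM (−0.85 ± 0.09, limma adjusted p = 0.000375), and the shuttle RAD23B fell by 0.62 on the log2 scale. NPLOC4, a cofactor of the unfoldase VCP, rose from 54.2 and 60.4 TPM to 76.5 and 83.9 TPM (0.48 ± 0.10). The polyubiquitin gene UBB (0.14) did not pass.

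Among 11 interferon response regulators, which control the immunoproteasome and the 11S cap, 1 was lower and 2 were higher in PTCP, against 37.6% and 15.9% of all genes. IRF1, a transcription factor of immunoproteasome genes, was at 58.6 and 55.4 TPM in DMSO, 58.1 and 56.2 TPM in TCP, 29.4 and 26.6 TPM in Palbo and 29.9 and 26.2 TPM in PTCP. Its log2 fold change of −1.002 ± 0.10 made it a DEG (limma adjusted p = 0.000237), without overlap between libraries with and without palbociclib. Both chains of the interferon gamma receptor rose, IFNGR1 from 108 and 109 TPM to 185 and 202 TPM (0.83 ± 0.08) and IFNGR2 from 68.4 and 65.4 TPM to 102 and 107 TPM (0.64 ± 0.09).

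Other complexes were set beside the proteasome. Of the 9 genes of the COP9 signalosome, a relative of the lid, 8 were lower in PTCP (median −0.54), where 37.6% of all genes were lower. Of the 8 genes of the cytosolic chaperonin 7 were lower (median −0.67), with CCT5 as a DEG (−1.01 ± 0.08, limma adjusted p = 0.000108). In TCP 0 of either list passed. Whether the decrease was particular to the proteasome was not tested. All 10 proliferation genes fell in PTCP, with log2 fold changes between −1.15 for MCM5 and −1.99 for CDK1, and were DEG.

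The 41 genes lie on 16 chromosomes, 7 of them on chromosome 14 and 7 on chromosome 17. PSMD4 and PSMB4, 132080 bases apart on chromosome 1, passed in no comparison with DMSO, whereas PSME1 and PSME2 both fell. Distances were measured for these pairs only, and whether neighbouring members share their changes was not tested.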

How the data were processed

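RNA was sequenced from 8 libraries of MV4-11 cells, 2 in each of 4 groups taken from the labels. The authors mapped reads to hg19 (GRCh37) with Subread, counted them with featureCounts 1.6.4 and deposited TPM per gene symbol; the submitters' processing notes also name SAMtools 1.9 and DESeq2 1.26.0. The gene annotation and the strand setting are not given in the sources used here. TPM are scaled to one sum in each library, so a change in a few abundant genes shifts all others, and they keep no counts: depth is unknown, so counting error has no interval here. Each library held 13320 to 13640 genes at 1 TPM or more.

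The deposited values were taken as log2(TPM + 1), and limma 3.58.1 (R 4.3.3) estimated the 4 group means jointly, shrinking each gene's variance toward a trend on abundance. The test covered the 14151 genes that reached 1 TPM in 2 or more libraries, and p-values were adjusted over all of them by Benjamini-Hochberg. The added 1 TPM makes changes of low genes look smaller. "Lower" and "higher" mean an adjusted p below 0.05. The fit was tested on simulated data with independent noise and planted changes of 2 on the log2 scale. These are larger than any change of the subunits, so calls of smaller changes were not covered. No effect shared by replicate number was simulated. Ratios inside a library were compared with exact permutation tests, two-sided, which cannot go below p = 0.333 with 2 libraries against 2.

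The groups share replicate numbers 1 and 2. After subtraction of group means, libraries with one number correlated positively for 6 of 6 pairs of groups (0.169 to 0.491), which was taken as a pairing of libraries by number; neither the labels nor the methods say what they share. The fit without the block is the main one, so its p-values and intervals do not use this pairing, nor do the exact tests. Named subunits were the active sites PSMB5 to PSMB7, PSMB8 and PSMB10, the activators, every DEG, and in each class the 2 with the largest and the 1 with the smallest change in PTCP; others are given by value only, and PSMD5 was added after its values were seen. The members and lists were chosen with earlier results of these data known. Gene positions are from a GENCODE annotation on GRCh37, promoters from RefSeq on GRCh38.p14. Alternatives were a pseudocount of 0.1, no filter, a minimum mean of 5 TPM, median-ratio scaling, quantile normalization, the replicate block, only the groups compared, no trend, and each library left out. A few genes of the lists are counted in their lists but not reported here by name.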

Additional observations from a re-analysis of the deposited data

How the results depend on the processing

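With median-ratio scaling 17 subunits passed in Palbo and 19 in PTCP against DMSO, and 1 was a DEG in PTCP against TCP, as with quantile normalization. Without a filter on low values 0 subunits were DEG in Palbo and in PTCP. Median log2 fold changes of the core, the regulatory particle and all subunits were −0.326, −0.188 and −0.278 in Palbo with quantile normalization and −0.283, −0.142 and −0.23 with median-ratio scaling. In PTCP against DMSO they were −0.328, −0.205 and −0.324, and −0.261, −0.184 and −0.237. In PTCP against TCP they were −0.485, −0.184 and −0.367, and −0.463, −0.168 and −0.347. With median-ratio scaling the core was at 0.118 in TCP and 0.051 in PTCP against Palbo. Leaving out 1 library, the subunits passing in Palbo ranged from 17 (without Palbo replicate 2) to 32, the DEG from 0 to 1 in Palbo and in PTCP against DMSO, and from 1 (without PTCP replicate 2) to 3 in PTCP against TCP. The core median ranged from 0.039 to 0.131 in TCP, −0.567 to −0.407 in Palbo, −0.566 to −0.49 in PTCP, −0.7 to −0.552 in PTCP against TCP, −0.082 to 0.021 in PTCP against Palbo and −0.164 to −0.077 in the interaction. That of the regulatory particle ranged from −0.058 to 0.159 in TCP and −0.135 to 0.017 in the interaction, and the difference in the ratio of PSMB10 to PSMB7 from −0.024 (without PTCP replicate 2) to 0.224 (without PTCP replicate 1). A fit with 1 library in a group assumes that it varies like the other groups. The cause of these shifts was not tested. With the replicate block 0, 32 and 31 subunits passed in TCP, Palbo and PTCP against DMSO. In PTCP against TCP, PTCP against Palbo and the interaction, 34, 0 and 0 did. No count of subunits thus moved by over 1.5 times. Of all 14151 genes, 5250 were then lower and 2599 higher in Palbo, 6077 and 2634 in PTCP against DMSO, and 5654 and 2763 in PTCP against TCP. Calls over all genes moved more. In TCP 77 were lower and 120 higher, against 20 and 41 without the block. In PTCP against Palbo there were 719 and 536, against 204 and 290. Of 1056 values of named subunits under the alternatives, 986 kept their side of the threshold, 67 lost the call and 3 gained it, and 0 called values changed sign; uncalled values that changed sign were not counted. Depth is unknown, and 2 libraries a group limit what can be detected.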

Other observations

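IRF9, a transcription factor of the interferon response, lay further apart between replicates of DMSO and of TCP than the immunoproteasome subunit PSMB8. It was at 80.9 and 49.0 TPM in DMSO, 87.5 and 37.5 TPM in TCP, 52.2 and 67.1 TPM in Palbo and 67.7 and 67.4 TPM in PTCP. PSMB8 stood at 19.8 and 18.7 TPM in DMSO and 19.7 and 18.3 TPM in TCP. These genes were singled out after their values were seen.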
